A study of Mus musculus with 9 samples.

Results

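The genes for the proteins of the cytosolic ribosome were compared between livers of mice given an antisense oligonucleotide (ASO) against apoC-III and livers of mice given a control ASO. They were chosen by symbol alone, taking the Rpl and Rps names of the large and small subunit with *Rplp0*, *Rplp1*, *Rplp2* and *Rpsa*, and leaving out symbols that contain -ps (pseudogene copies) and the *Rps6k* kinases. This gave 88 of the 51912 genes listed, of which 52 belong to the large and 36 to the small subunit. The annotation calls 83 of them protein-coding and 5 pseudogenes (*Rps3a2*, *Rps3a3*, *Rps4l*, *Rps12l1* and *Rpl6l*), and they lie on 19 chromosomes.

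Liver RNA was sequenced from 9 fasted mice that had received weekly intraperitoneal injections (50 mg/kg) over 8 weeks. The apoC-III ASO group had 5 mice and the control ASO group 4. All 9 mice, controls included, were Apoe-/-Ndst1 f/f Alb-Cre+ on a C57Bl/6 background, so they lacked apoE throughout and the heparan sulfate-modifying enzyme Ndst1 in the cells where Alb-Cre acts, the hepatocytes. Age and diet were not stated beside the RNA sequencing. The authors deposited TPM, a length-corrected share of each library that sums to the same total in every liver. Scaled TPM below is that TPM divided by 1 factor per liver, so that the typical gene sits at the same level in all 9 livers.

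Each cytosolic ribosome holds a single copy of nearly every one of these proteins, arranged around the ribosomal RNAs of its large and small subunit. Their mRNAs commonly begin with a C followed by a run of pyrimidines, the 5′ terminal oligopyrimidine (TOP) motif, through which mTORC1 and LARP1 control their translation together. Hepatocytes secrete much of the plasma protein and so depend heavily on this machinery.

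The promoters of several members that the results below turn on are shown first, because the family is known for a feature at the start of its mRNAs. RefSeq promoters (GRCm38.p6) were found for 63 members, with 75 start sites in all. The windows run 5′ to 3′ on the gene's strand from 40 bases before to 30 bases after the annotated first base, and capitals mark the longest run of C and T between 20 bases before and 30 bases after it. A marked run can lie wholly before the first base, as in *Rps28*, or begin well after it, as in *Rps7*. Its length is therefore not the length of a TOP motif. They belong to *Rpl38* (chr11:114668540-114668609, + strand), *Rpl34* (chr3:130730308-130730377, - strand), *Rpl12* (chr2:32961672-32961741, + strand), *Rpl14* (chr9:120571477-120571546, + strand), *Rpl28* (chr7:4792925-4792994, + strand), *Rps7* (chr12:28635924-28635993, - strand), *Rps10* (chr17:27635215-27635284, - strand), *Rps28* (chr17:33824533-33824602, - strand) and *Rps6* (chr4:86857338-86857407, - strand).
Rpl38: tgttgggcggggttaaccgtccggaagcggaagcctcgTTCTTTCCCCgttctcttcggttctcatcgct
Rpl34: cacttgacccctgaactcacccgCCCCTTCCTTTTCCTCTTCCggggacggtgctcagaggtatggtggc
Rpl12: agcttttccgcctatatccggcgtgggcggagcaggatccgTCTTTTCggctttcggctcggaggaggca
Rpl14: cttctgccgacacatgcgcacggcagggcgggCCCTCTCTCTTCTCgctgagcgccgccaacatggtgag
Rpl28: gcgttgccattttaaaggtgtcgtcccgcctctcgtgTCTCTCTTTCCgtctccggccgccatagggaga
Rps7: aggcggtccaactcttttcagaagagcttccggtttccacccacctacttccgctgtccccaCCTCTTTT
Rps10: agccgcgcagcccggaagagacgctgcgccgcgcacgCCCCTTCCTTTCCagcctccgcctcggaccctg
Rps28: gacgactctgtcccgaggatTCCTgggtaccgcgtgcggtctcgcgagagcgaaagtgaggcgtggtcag
Rps6: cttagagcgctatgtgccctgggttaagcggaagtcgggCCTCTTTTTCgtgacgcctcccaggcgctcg
The run was 20 bases long in *Rpl34*, 14 in *Rpl14*, 13 in *Rps10*, 11 in *Rpl28*, 10 in *Rpl38* and *Rps6*, 8 in *Rps7*, 7 in *Rpl12* and 4 in *Rps28*. *Rpl34* has another annotated start nearby, with a run of 8. A run of at least 8 pyrimidines lay in 35 of the members' 75 windows (46.7%), against 19.0% of all 32851 promoters of the table. The first base was C in 29.3% of the members' promoters and 16.3% of all. The letters CCGGAAG, which ETS factors bind, were found on either strand within the 300 promoter bases in 36.0% of the members' promoters and 8.86% of all. The YY1 core AAGATGG was found likewise in 16.0% against 6.34%, and TATAAA in 9.33% against 13.6%. A match of letters is a description of the sequence and does not show that a factor binds there.

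The livers differed in ways that bear on every value below. The small cytoplasmic and nuclear RNAs annotated as misc_RNA, chiefly the 7SL genes *Rn7s1* and *Rn7s2*, took 64.4% to 84.5% of the TPM of a liver. Nuclear protein-coding genes took 1.94% to 8.64%, and single ribosomal protein genes stood at a few TPM. The scaling factor was 0.217 in control ASO replicate 4 and 0.638 to 1.81 in the other 8 livers, so that liver's values were raised the most by scaling. *Apoc3*, the target of the treatment, was at 23.5 ± 8.12 TPM (SD, n = 5) after the apoC-III ASO and 174 ± 96.1 TPM (SD, n = 4) after the control ASO, a decrease by 86.5% (p = 0.0159 in a two-sided exact permutation test). That is the smallest p this test can give with 5 and 4 livers. Control ASO replicate 4 was at 41.4 TPM, the other controls at 184 to 271 and the treated livers at 14.0 to 32.2. The sum of 8 hepatocyte marker genes was 1193 to 2632 scaled TPM in the apoC-III ASO livers and 1726 to 2358 in the control ASO livers, with medians of 1478 and 1912. Of these genes 7 had a lower mean after the apoC-III ASO, with a median log2 fold change of -0.39, an unadjusted p under 0.05 for *Serpina1c* alone and none called. Of 5 red blood cell genes 4 were above 0 in all livers, and their sum was 97.1 scaled TPM in control ASO replicate 4, at most 9.17 in the other control livers and 2.20 to 42.4 in the treated ones. The sum of 6 stellate cell genes, all above 0 in every liver, was 11.4 in control ASO replicate 4, at most 7.87 in the other controls and 5.36 to 6.52 in the treated livers. Cholangiocyte genes (5) summed to 5.37 there, at most 3.29 in other controls and 1.68 to 3.69 in treated livers. Sinusoidal endothelial genes (6) summed to 3.49 there, at most 6.64 in other controls and 4.19 to 6.59 in treated livers. Macrophage and leukocyte genes (8) summed to 6.06 there, at most 7.58 in other controls and 4.87 to 8.95 in treated livers. The part of these cell types in the results below was not tested. Depth per liver is unknown, since TPM keeps none.

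Tested gene by gene, none of the ribosomal protein genes was called different between the treatments, and the group as a whole was not tested. Of the 88 members, 77 had a mean of at least 1 scaled TPM over all livers and were tested, 45 of the large and 32 of the small subunit. The limma fit ran across all 4437 genes that passed this filter, and calling a gene took both a difference of more than 1.5-fold and an adjusted p (Benjamini-Hochberg) below 0.05. No member was called in either direction, where 1 gene was called higher (0.0225% of those tested) and 1 lower (0.0225%), the latter *Apoc3*. The smallest adjusted p of a member was 0.714 (limma, Benjamini-Hochberg). In bulk liver, fewer cells of a type and less RNA per cell cannot be told apart, and the p-values measure the spread between these 9 livers.

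In the large subunit, 14 of 45 tested members had a higher mean after the apoC-III ASO and 31 a lower one, with a median log2 fold change of -0.18. In the small subunit, 5 of 32 were higher and 27 lower, with a median of -0.19. Over all genes tested, 46.3% were above 0 and the median was -0.02. The size of this lean depended on single livers. It grew without control ASO replicate 3, to medians of -0.25 (large) and -0.35 (small). Without apoC-III ASO replicate 4 it also grew, to -0.27 and -0.31. It shrank or turned in the settings that follow. Without control ASO replicate 4, 24 of 45 large and 15 of 33 small subunit genes were above 0, and the medians were 0.01 and -0.04. Without apoC-III ASO replicate 2, 18 of 45 and 11 of 32 were above 0, and the medians were -0.05 and -0.09. With array weights, which count livers that fit less well for less, the medians were -0.02 and -0.12. In TPM as deposited, with no scaling, the medians were 0.06 and 0.04, with 29 of 45 and 20 of 33 members above 0, while the median over all genes was 0.11.

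**Figure D1:**
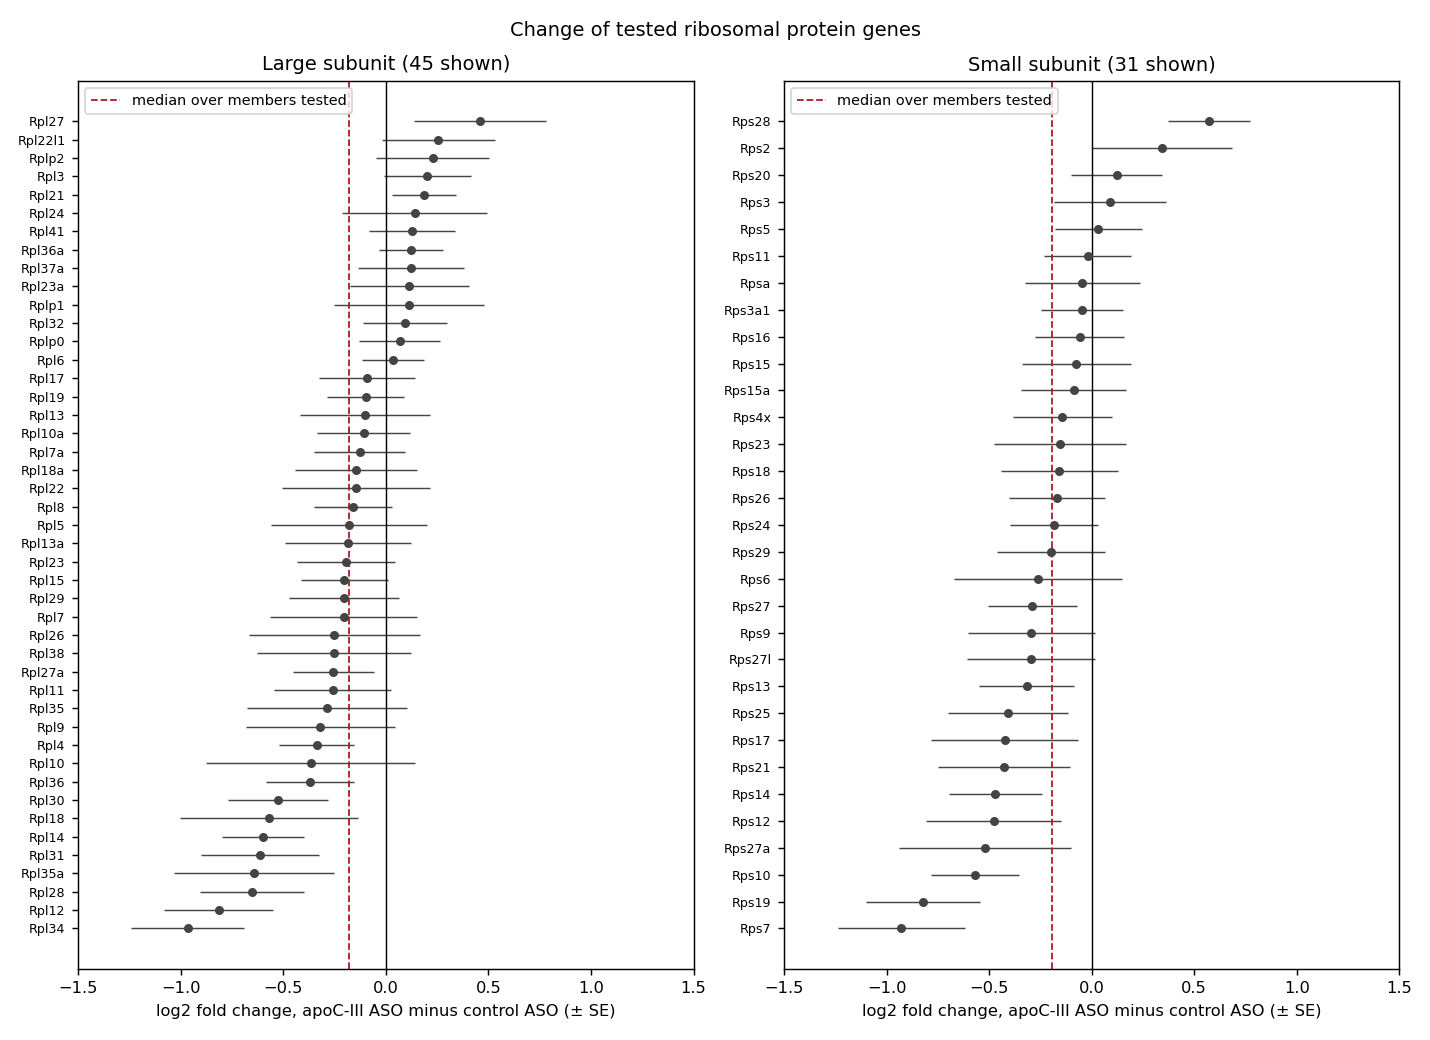
Log2 fold change of tested members (apoC-III ASO minus control ASO, on log2 of scaled TPM + 1), with standard errors, for the 45 large subunit (left) and 31 of the 32 small subunit genes (right). The dashed lines are the medians of -0.18 and -0.19, and most points lie left of 0 within a few standard errors of it.

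Summed per liver, the members overlapped between the groups. The large subunit genes summed to 178, 117, 178, 262 and 190 scaled TPM in apoC-III ASO replicates 1 to 5, and to 161, 229, 155 and 340 in control ASO replicates 1 to 4. The small subunit genes summed to 116, 84.7, 116, 167 and 135 in the treated livers and to 110, 148, 115 and 255 in the controls. Control ASO replicate 4 was the highest liver and apoC-III ASO replicate 2 the lowest for both subunits, and the other 7 livers were intermixed. Of the 77 tested members, 45 (58.4%) had their highest value in control ASO replicate 4, against 25.0% of all genes tested.

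Another pair of measures needs no scaling factor. The members' share of nuclear protein-coding TPM was 0.871%, 0.652%, 0.764%, 0.967% and 0.678% in the treated livers and 0.565%, 0.957%, 0.557% and 0.659% in the controls. The group means were 0.786 ± 0.132% (SD, n = 5) and 0.684 ± 0.187% (SD, n = 4), with the higher mean in the treated group and ranges that overlapped. On this measure control ASO replicate 4 was not the highest control liver. The large subunit sum divided by the small subunit sum was 1.53, 1.38, 1.55, 1.57 and 1.40 in the treated livers and 1.47, 1.55, 1.35 and 1.33 in the controls, which gives 1.49 ± 0.0861 (SD, n = 5) and 1.42 ± 0.102 (SD, n = 4). The balance of the subunits thus differed by less than 1 SD between the groups.

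**Figure D2:**
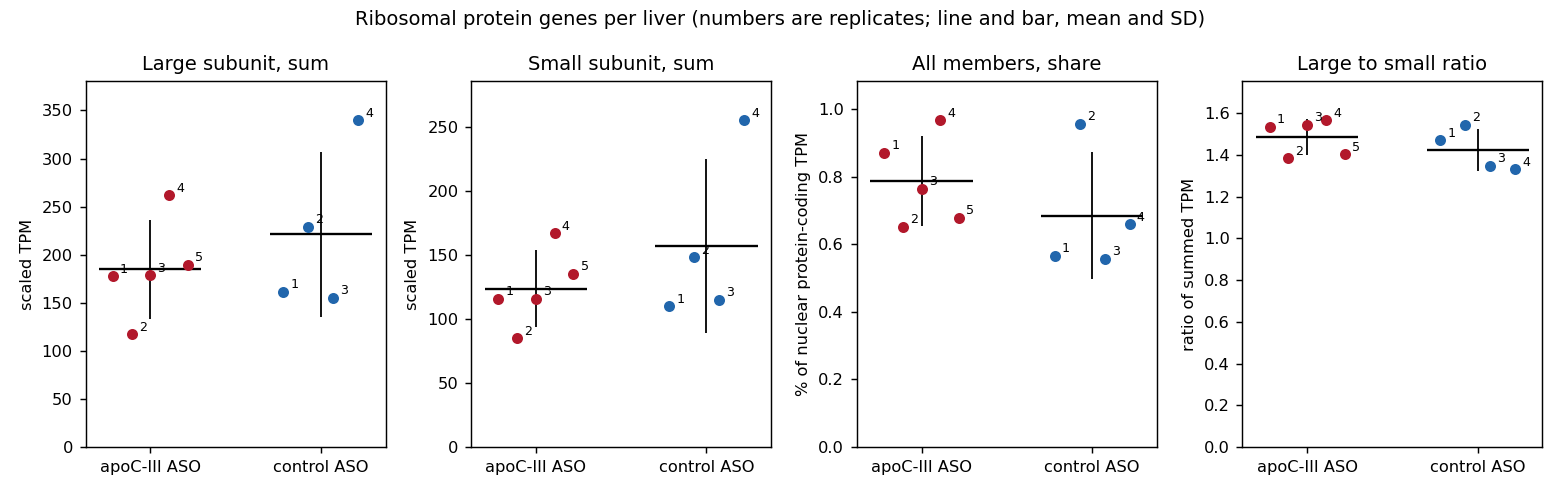
Summed scaled TPM of the large and small subunit genes, the share of nuclear protein-coding TPM taken by all members, and the large to small subunit ratio, 1 point per liver labelled by replicate, with group mean and SD. Control ASO replicate 4 is the highest liver in the sums (340 and 255 scaled TPM) but is at 0.659% in the share, inside the range of the treated livers.

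Although nearly all of these proteins enter the ribosome in equal number, their transcript levels were unequal. The large subunit genes tested ranged 14.9-fold in mean scaled TPM, from 1.11 (*Rpl17*) to 16.5 (*Rpl38*), with a median of 3.36. The small subunit genes ranged 8.23-fold, from 1.33 (*Rps16*) to 10.9 (*Rps2*), with a median of 3.47. Over all genes tested the median was 2.24. The filter at a mean of 1 bounds the lower ends of these ranges, and *Rpl37* and *Rpl39* did not pass it. The level of *Rpl17* is uncertain because of its pseudogene copies, as given below. The highest large subunit genes after *Rpl38* were *Rpl13a*, *Rpl27*, *Rpl11* and *Rpl18*, and the highest small subunit genes after *Rps2* were *Rps18*, *Rps24*, *Rps9* and *Rps15*. *Rpl22l1* and *Rpl35* stood beside *Rpl17* at the low end, and *Rps13* and *Rps23* beside *Rps16*. The order of members was alike between livers, with Spearman correlations of 0.567 to 0.900 and a median of 0.798 over 36 pairs of livers. These correlations are across genes, which share their lengths and annotation in every liver and are no replicates. Across members, level and median transcript length had a Spearman correlation of -0.34.

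*Rpl38*, a small protein at the surface of the large subunit, was at 16.7, 11.7, 16.7, 20.1 and 7.97 scaled TPM in the treated livers and at 11.6, 25.7, 9.36 and 28.4 in the controls. Both groups thus spanned low and high livers, and the log2 fold change was -0.25 ± 0.38 (SE), with a limma Benjamini-Hochberg adjusted p of 0.95. *Rps2*, which lies at the mRNA entry side of the small subunit, was at 8.46, 9.21, 6.73, 19.4 and 17.9 in the treated livers and at 6.94, 6.40, 9.13 and 14.2 in the controls. Apart from 2 treated livers above all controls the groups overlapped, with a log2 fold change of 0.34 ± 0.34 (SE). *Rpl27*, the member with the largest positive log2 fold change of the large subunit, was at 14.3, 6.22, 11.7, 18.2 and 24.1 in the treated livers and within 8.63 to 10.4 in the controls. Its 3 named pseudogene copies averaged 1.77 in the treated livers and 5.97 in the controls. For *Rpl27* itself all treated livers but replicate 2 were above the control range, with a log2 fold change of 0.46 ± 0.32 (SE) and a limma Benjamini-Hochberg adjusted p of 0.86. With the copies added to *Rpl27* the log2 fold change was 0.10.

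At an unadjusted p under 0.05, with no correction for the 4437 genes tested, 4 large and 3 small subunit genes were lower and 1 small subunit gene was higher after the apoC-III ASO. Among all genes tested, 3.11% were lower and 2.41% higher at this level. Groups did not overlap for 2 members, both lower, where 1.24% of all genes tested were lower and 0.924% higher without overlap. These 8 genes are described here one by one, and none of them passed the correction.

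*Rpl34* (ENSMUSG00000062006), a large subunit protein, had the largest change of any member. It was at 2.92, 1.42, 2.37, 2.38 and 1.78 scaled TPM in the treated livers and at 3.0, 5.99, 3.69 and 9.67 in the controls. Every treated liver was below every control liver, though treated replicate 1 and control replicate 1 nearly met. With the values of its pseudogene copies added, treated replicate 4 was at 3.65 and control replicate 1 at 3.0, so the groups then overlapped. The log2 fold change was -0.97 ± 0.28 (SE), with a limma Benjamini-Hochberg adjusted p of 0.714. Leaving out control ASO replicate 4 gave a log2 fold change of -0.73. Its start carries the long pyrimidine run shown above.

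*Rpl12* (ENSMUSG00000038900), which sits at the base of the stalk of the large subunit, was at 0.722, 1.41, 1.86, 1.29 and 0.371 scaled TPM in the treated livers and at 2.31, 1.92, 1.98 and 4.97 in the controls. The groups did not overlap, and control ASO replicate 4 was far above the other controls. The log2 fold change was -0.81 ± 0.27 (SE), with a limma Benjamini-Hochberg adjusted p of 0.764. Leaving out control ASO replicate 4 gave a log2 fold change of -0.62.

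*Rpl14* and *Rpl28* belong to the solvent side of the large subunit. *Rpl14* was at 3.88, 1.99, 2.06, 2.46 and 2.32 scaled TPM in the treated livers and at 3.08, 5.78, 3.68 and 5.0 in the controls. Only treated replicate 1 reached the control range, and the log2 fold change was -0.60 ± 0.20 (SE). *Rpl28* was at 3.94, 2.70, 3.50, 7.83 and 4.49 in the treated livers and at 6.12, 10.0, 6.10 and 7.35 in the controls. Again 1 treated liver, replicate 4, reached into the control range, and the log2 fold change was -0.65 ± 0.25 (SE).

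In the small subunit, *Rps7* (ENSMUSG00000061477), which also binds MDM2 outside the ribosome, was at 2.17, 2.40, 4.30, 1.75 and 2.24 scaled TPM in the treated livers and at 4.91, 3.51, 4.42 and 12.3 in the controls. Treated replicate 3 lay within the control range and the other 4 below it, with a log2 fold change of -0.93 ± 0.31 (SE) and a limma Benjamini-Hochberg adjusted p of 0.764. Leaving out control ASO replicate 4 gave -0.62. *Rps19*, the gene most often mutated in Diamond-Blackfan anemia, was at 1.67, 2.83, 3.92, 3.33 and 4.17 in the treated livers and at 5.40, 6.96, 3.63 and 10.4 in the controls. Control replicate 3 lay among the treated livers and the other 3 controls above them, with a log2 fold change of -0.82 ± 0.28 (SE).

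*Rps28* was the single member higher at this level. This small protein of the small subunit, close to the mRNA exit channel, was at 2.92, 1.59, 3.25, 4.47 and 2.87 scaled TPM in the treated livers and at 1.27, 2.03, 1.69 and 1.58 in the controls. All treated livers but replicate 2 were above the highest control. The log2 fold change was 0.57 ± 0.20 (SE), with a limma Benjamini-Hochberg adjusted p of 0.781. Leaving out control ASO replicate 4 gave a log2 fold change of 0.60. Of the windows shown, its start had the shortest pyrimidine run, which lies before the annotated first base. *Rps19*, lower and not among those windows, had runs of 4, 4 and 7 at its annotated starts. Any link between run length and change was not tested.

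**Figure D3:**
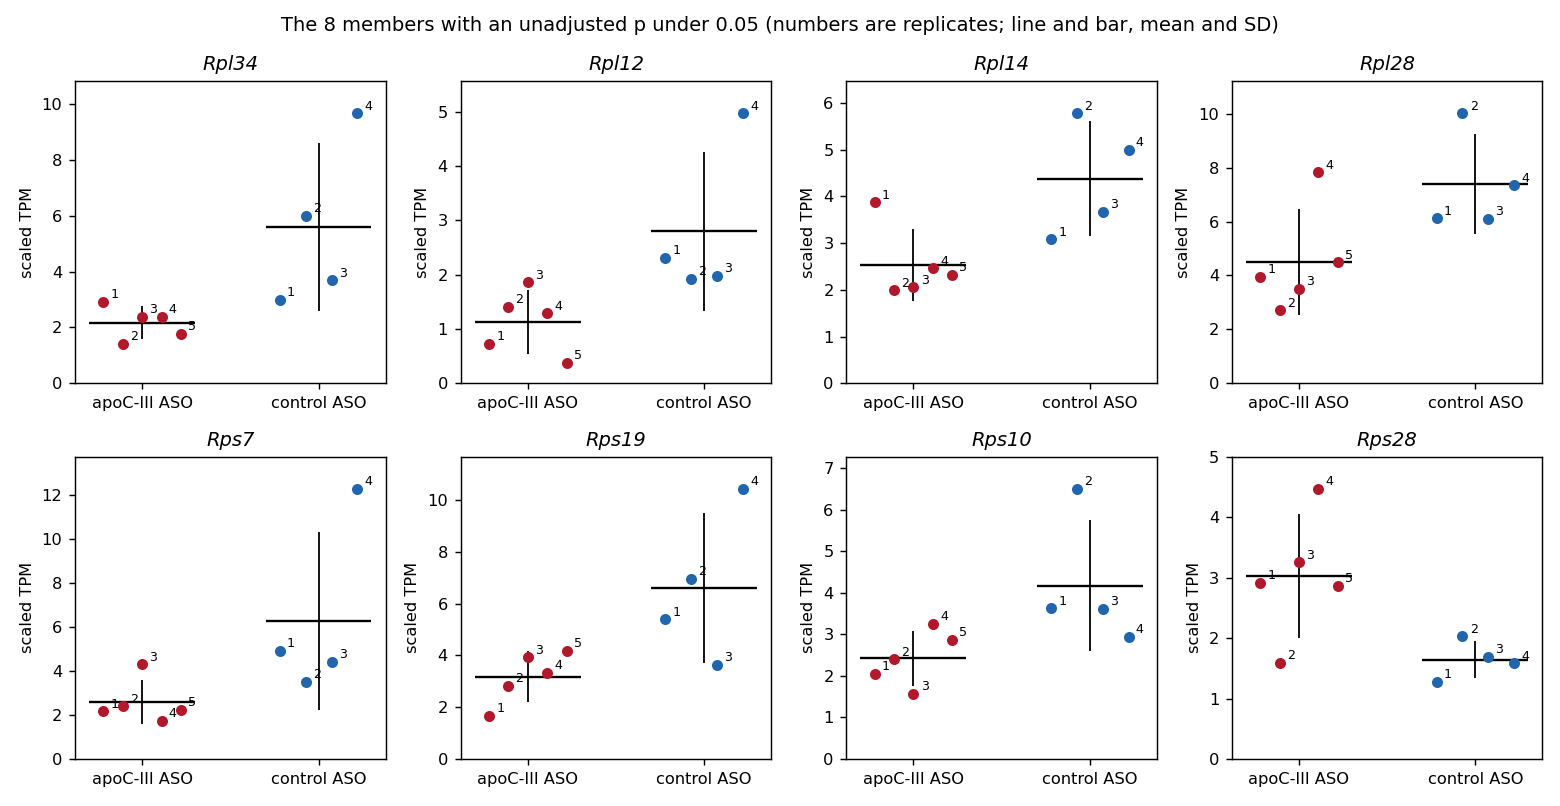
Scaled TPM of the 8 members with an unadjusted p under 0.05, 1 point per liver labelled by replicate, with group mean and SD. *Rpl34* and *Rpl12* are the members without overlap, and *Rps28* is the 1 with the higher treated mean (3.02 against 1.64).

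*Rps10* (ENSMUSG00000052146), at the beak of the small subunit, was at 2.04, 2.40, 1.57, 3.25 and 2.87 scaled TPM in the treated livers and at 3.62, 6.49, 3.61 and 2.94 in the controls. Treated replicate 4 and control replicate 4 overlapped, and the log2 fold change was -0.57 ± 0.21 (SE). Its 4 named pseudogene copies had the higher mean in the treated group, at 2.54, 1.07, 3.23, 2.64 and 4.15 in the treated livers, while they were listed at 0 in 3 control livers and at 2.26 in control replicate 4. Copies resemble their parent in sequence, and reads of *Rps10* and of its copies cannot be told apart with certainty. *Rps10* and copies together summed to 4.59, 3.47, 4.80, 5.89 and 7.02 in the treated livers and to 3.62, 6.49, 3.61 and 5.20 in the controls, with overlapping ranges. With the copies added to their parents before the fit, the log2 fold change turned to 0.10 ± 0.22 (SE; adjusted p = 0.971 with limma and Benjamini-Hochberg). *Rps10-ps2*, 1 of these copies, is the 1 gene called higher in these livers.

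**Figure D4:**
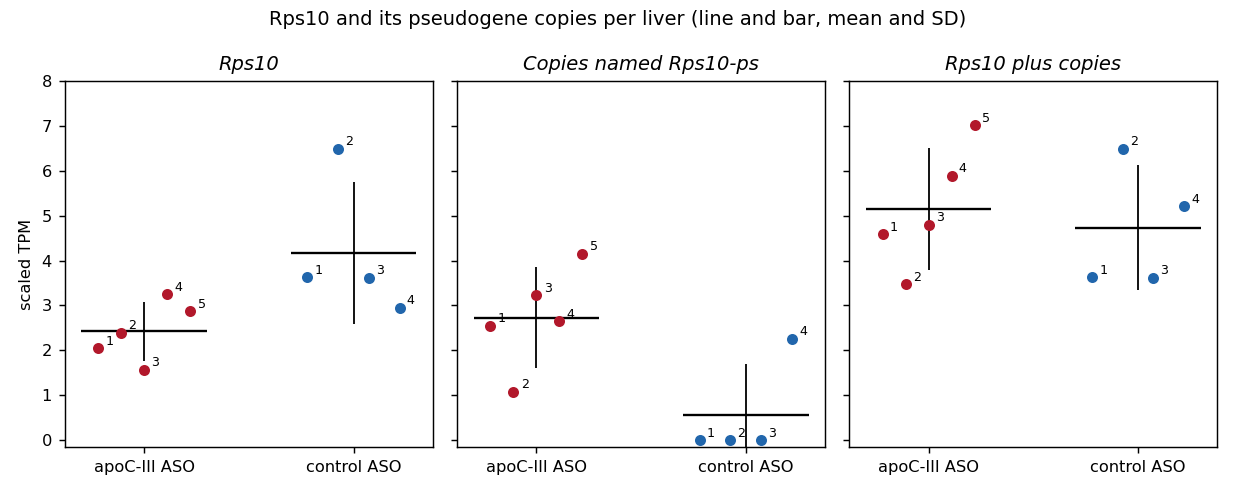
Scaled TPM of *Rps10* (left), of its copies named *Rps10-ps* (middle) and of their sum (right), 1 point per liver labelled by replicate, with group mean and SD. The treated mean is lower for *Rps10* (2.43 against 4.17) and higher for the copies (2.73 against 0.566), and the sums are 5.15 and 4.73.

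Such copies bear on other members too. By name, 275 copies belong to 60 members, and 115 of them were above 0 in at least 1 liver. They took 12.8% to 21.0% of the TPM of members and copies together. The share was 82.4% for *Rpl19*, 71.4% for *Rpl36a*, 70.4% for *Rpl17* and 60.5% for *Rpl3*, so the levels given for these genes are uncertain. With copies added, 9 members of 78 were lower and 1 higher at an unadjusted p under 0.05, where 3.12% of all genes in that fit were lower and 2.40% higher. The medians were -0.25 (large) and -0.27 (small). *Rps7* and *Rps28* had no copy above 0, so their log2 fold changes stayed as they were. *Rpl34*, *Rpl12*, *Rpl14* and *Rpl28* remained among the 9, while *Rps10* and *Rps19* (log2 fold change -0.47) did not. *Rpl35a* (-0.85), *Rpl36* (-0.63), *Rpl3* (-0.54) and *Rpl29* (-0.45) joined them on this scale, and *Rpl3* had been at 0.20 without its copies.

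Members with known roles beyond the core showed no difference that passed the test. The stalk proteins *Rplp0*, *Rplp1* and *Rplp2*, which recruit the elongation factors, had log2 fold changes of 0.07, 0.11 and 0.23. *Rplp1* was at 13.6 scaled TPM in treated replicate 4 and at 2.72 to 5.03 in the other treated livers, so a single liver lifted its treated mean. The 5S particle proteins *Rpl5* and *Rpl11*, which bind MDM2 when ribosome assembly is disturbed, had log2 fold changes of -0.18 ± 0.38 and -0.26 ± 0.28 (SE). *Rpl5* was at 7.65 in control ASO replicate 4 and at 1.40 to 1.93 in the other controls.

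*Rps6*, the substrate of the S6 kinases downstream of mTORC1, was at 4.65, 1.38, 4.49, 5.43 and 2.91 scaled TPM in the treated livers and at 3.61, 2.36, 3.25 and 12.05 in the controls. Without the last value the controls lay inside the treated range, and the log2 fold change was -0.26 ± 0.41 (SE), with a limma Benjamini-Hochberg adjusted p of 0.952. *Rpsa*, also known as the laminin receptor, had a log2 fold change of -0.05 ± 0.28 (SE). *Rps27a*, made as a fusion with ubiquitin, was at 17.4 in control ASO replicate 4 and 2.61 to 8.64 elsewhere, with a log2 fold change of -0.52 ± 0.42 (SE).

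The remaining genes with large changes were *Rpl35a* and *Rpl31* of the large subunit (-0.64 ± 0.39 and -0.61 ± 0.29, log2 fold change and SE). *Rpl35a* was at 3.36, 2.65, 8.04, 5.80 and 6.49 scaled TPM in the treated livers and at 8.31, 10.5, 3.27 and 15.04 in the controls, with overlapping groups, and with its copies added its log2 fold change was -0.85.

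Some ribosomal proteins have a paralog that can take their place. *Rpl22l1* relative to *Rpl22* was at a ratio of 0.609, 0.787, 0.531, 0.278 and 0.0775 in the treated livers and of 0.114, 0.585, 0.108 and 0.205 in the controls. The ratio varied several-fold within each group, and the group means of 0.456 ± 0.280 (SD, n = 5) and 0.253 ± 0.226 (SD, n = 4) were within the spread. *Rps27l*, a p53 target, relative to *Rps27* was at 1.70 ± 1.19 (SD, n = 5) and 1.38 ± 0.420 (SD, n = 4), the paralog being at or above the level of the parent in 7 of 9 livers. *Rpl7l1* was at 0.0758 and 0.0766 of *Rpl7* in the means of the groups. *Rpl10l*, known from testis, and *Rpl39l* were listed at 0 in all 9 livers, and *Rpl3l*, known from muscle, was above 0 in 2.

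The 11 members under a mean of 1 scaled TPM were not tested. *Rpl37* (0.283 to 1.34 scaled TPM), *Rpl39* (0.283 to 0.809) and *Rpl7l1* (0.273 to 0.601) were above 0 in all livers with overlapping groups. *Rps4l*, an annotated pseudogene, was at 0.762 to 1.13 in the treated livers and 0.398 to 0.918 in the controls. *Rps3a2* was at 0.253 to 0.950 in the treated livers and 0.417 to 2.94 in the controls. The others were at or near 0, namely *Rpl6l*, *Rpl3l*, *Rpl10l*, *Rpl39l*, *Rps3a3* and *Rps12l1*.

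Other genes of translation were looked at from lists. A list of 19 genes whose mRNAs also carry the TOP motif held mostly translation factors, with others such as *Hnrnpa1*, *Nap1l1* and *Tpt1*. Of these 19, 13 were tested, all 13 had a lower mean after the apoC-III ASO and 0 were called (median log2 fold change -0.13). *Eif3m*, a subunit of the eIF3 initiation complex, had an unadjusted p under 0.05, at 1.06 ± 0.207 scaled TPM (SD, n = 5) against 2.36 ± 1.31 (SD, n = 4). The sum of this list was also highest in control ASO replicate 4, at 178 against at most 98.1 in the other controls. Without that liver 3 of 14 were above 0, and in TPM as deposited 7 of 14.

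For ribosome assembly and rRNA synthesis, 14 of 40 genes were tested, 4 above and 10 below 0, with none called and a median of -0.09. *Fbl*, the methyltransferase fibrillarin, had the largest log2 fold change among them, 0.72 ± 0.34 (SE; adjusted p = 0.86 with limma and Benjamini-Hochberg). Of 17 genes of mTORC1 and TOP control, 9 were tested, 6 above and 3 below 0, with a median of 0.01 and none called. Of 8 genes of the p53 response, 3 were tested, 2 above and 1 below 0 with none called, and *Mdm2*, the ubiquitin ligase that free ribosomal proteins bind, had a log2 fold change of 0.21 ± 0.15 (SE). Mitochondrial ribosomal proteins, made in the cytosol for the other ribosome of the cell, were 14 above and 16 below 0 among 30 tested of 78, with none called and a median of -0.02. Among ribosomal proteins with other symbols, *Rpl36al* had a log2 fold change of 0.05 ± 0.29 and *Rack1* of 0.32 ± 0.19 (SE), while *Fau* was under a mean of 1.

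**Figure D5:**
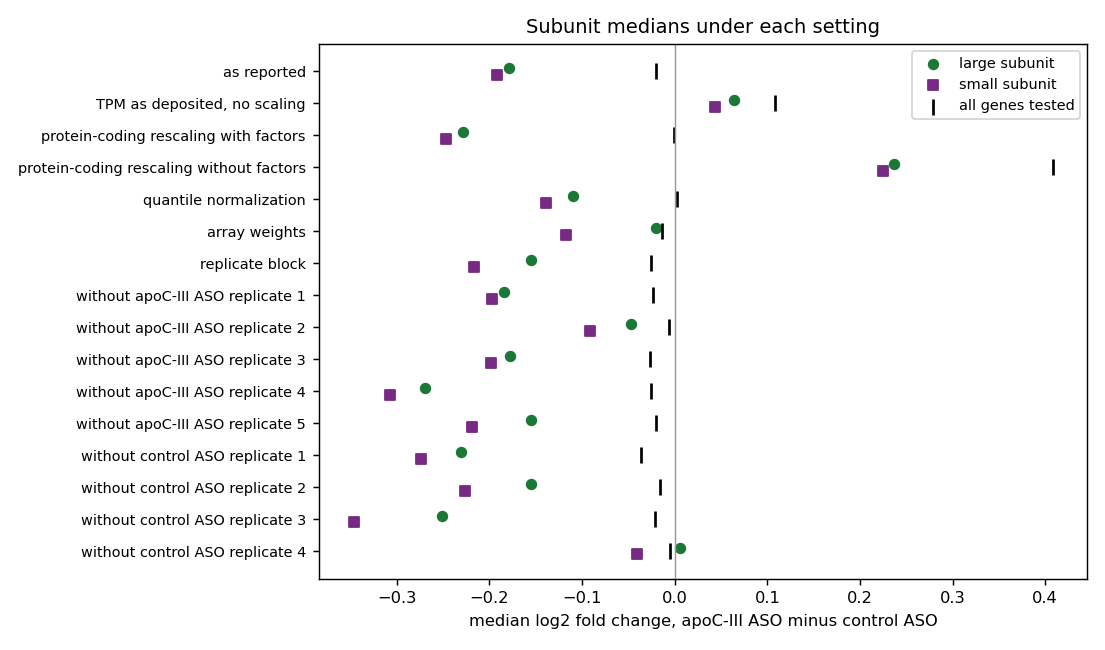
Median log2 fold change over the large subunit (circles), the small subunit (squares) and all genes tested (ticks) under each way of scaling or fitting and with each liver left out. The subunit medians lie between -0.35 and 0.24 and are close to 0 without control ASO replicate 4, and both subunits move together.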

How the data were processed

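Livers were grouped by the treatment in the labels. The values are TPM per gene as the authors deposited them, and the submitters' notes name kallisto 0.43.1 and GRCm38. The methods of the study name STAR, featureCounts and a count test instead, and those counts were not used here. No depth can be had from TPM, so no counting intervals are given.

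TPM was divided by median-of-ratios factors over the 14190 genes above 0 in all livers, log2(value + 1) was fitted with limma 3.58.1 in R 4.3.3 (eBayes with trend, no covariates) and genes with a mean of at least 1 were tested. Fold changes are on this scale and understate those of low genes. Simulated data with known changes were used to test the fit. They had independent noise per gene and no differences between whole livers, so they do not show how the fit handles such differences. *Apoc3* was tested with an exact permutation test on TPM as deposited. Annotation came from GENCODE M21, promoters from RefSeq. Other steps used Python 3.11.15, pandas 2.3.3, numpy 2.4.6, scipy 1.17.1 and matplotlib 3.10.9.

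Members named are those highest and lowest per subunit, the 5 largest changes per subunit, every member with an unadjusted p under 0.05 or without overlap, those under a mean of 1, paralog pairs and members with roles outside the core. Lists add up to 3 tested genes each. The values of 1 member and 1 listed gene are not reported here. *Rpl19*, *Rpl29*, *Rpl36*, *Rpl36a* and *Serpina1c* were chosen after their values were seen. Members and lists were chosen with earlier results of these data known. Alternatives were other scalings, pseudocounts (0.1, 0.5), filters (none, minimum 5), no trend, array weights, a replicate block and each liver left out. Adding copies to parents, and rescaling to protein-coding genes without control ASO replicate 4, were added after seeing the data.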

Additional observations from a re-analysis of the deposited data

Results flagged for a closer look

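Among 88 sets of 4 or 5 livers (both groups for 40 named members and 4 sums, shares or ratios), 16 held a liver standing far from the rest by Dixon's test at the 95% level. For independent sets of normally spread values, chance does this in about 1 of 20. These sets share the same 9 livers and were taken unlogged, so the number of flags is not set against that rate. In control ASO replicate 4 the values were high for *Rpl13a* (22.5 scaled TPM, other controls at most 13.5), *Rplp1* (8.58, others at most 4.41), *Rpl22* (9.37, others at most 3.25), *Rpl5* (7.65, others at most 1.93), *Rpl12* (4.97, others at most 2.31) and *Rpl35* (5.90, others at most 0.851). Small subunit genes high in that liver were *Rps6* (12.05 scaled TPM, others at most 3.61), *Rps7* (12.3, others at most 4.91), *Rps27l* (6.25, others at most 2.75), *Rps23* (4.68, others at most 1.29) and *Rps13* (3.38, others at most 1.22). In apoC-III ASO replicate 4 the values were high for *Rpl18* (14.5 scaled TPM, other treated livers at most 7.31), *Rplp1* (13.6, others at most 5.03) and *Rplp0* (4.23, others at most 2.88). The remaining values were *Rpl14* in apoC-III ASO replicate 1 (3.88 scaled TPM, others at most 2.46) and *Rps7* in apoC-III ASO replicate 3 (4.30, others at most 2.40). The sums, the share and the subunit ratio held no such liver.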

How the results depend on the processing

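No member was called under any of the settings run. The counts of all genes called, 1 higher and 1 lower, were 5 and 6 in TPM as deposited, 0 and 2 with protein-coding rescaling and factors, 2 and 2 with quantile normalization and 2 and 3 with array weights. The replicate block gave 0 and 0, and in it apoC-III ASO replicate 5 had no control of the same number. Same-numbered livers deviated together with correlations from -0.003 to 0.184, and differently numbered ones with correlations from -0.303 to 0.342. Control ASO replicates 2, 3 and 4 each correlated highest with the treated liver of the same number (0.184, 0.159 and 0.168). Control ASO replicate 1 was at -0.003 with treated replicate 1 and at 0.342 with treated replicate 2. The labels name no pairing, so the numbers were not taken to pair the livers, though these values do not exclude one. None was called higher with rescaling without factors, without a filter, at a minimum of 5, with copies added to parents or with rescaling and control ASO replicate 4 left out, and 2 (pseudocount 0.1, no trend) or 3 (that last setting) were called lower. At a minimum of 5 and with copies added, *Rps10-ps2* was not fitted as a gene of its own, so those settings could not call it. Rescaling kept protein-coding genes only. With each liver left out in turn, 0 to 1 genes were called higher and 1 to 2 lower, the 2 without control ASO replicate 4. *Rps10-ps2* was no longer called higher without apoC-III ASO replicates 1, 4 or 5 or control ASO replicates 1, 2 or 3. Members lower at an unadjusted p under 0.05 (7) numbered 0 in TPM as deposited, 1 with rescaling without factors and 1 at a minimum of 5, where 0.972%, 0.340% and 5.45% of all genes were lower, and 5 to 11 with a liver left out, the 11 without control ASO replicate 1. Members higher (1) numbered 0, 4 and 0 in the same 3 settings, where 1.03%, 10.7% and 1.44% of all genes were higher (the 4 are 5.0% of 80 members), 2 with array weights, and 1 to 2 with a liver left out, the 2 without apoC-III ASO replicate 2. With protein-coding rescaling without factors the subunit medians were 0.24 (large) and 0.22 (small), where the median of all genes was 0.41. *Rps10* turned to 0.10 with its copies added. The other 9 named members with the largest changes kept their direction under all settings that gave a value. They were chosen by their values in these same livers, so this is no separate support for them. The cause of the differences between settings was not tested. Depth is unknown, and an adjusted p over the threshold does not show that a member was the same in both groups.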
